A study of Mus musculus with 16 samples.

Results

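The ileum and the duodenum of the normal small intestine were compared in 4 control mice, by setting the 4 ileum libraries against the 4 duodenum libraries of the same animals over all genes. These are 8 of the 16 libraries and 4 of the 8 mice of the series. The members were chosen by their labels alone, and each ileum library was paired with the duodenum library that carries the same mouse number. All of the mice were adult male C57BL/6N animals on a high fat diet, and tissue was taken 5 weeks after tamoxifen. Control mice carried Neurog3f/f alleles, in which the gene for the endocrine regulator Neurog3 is flanked by recombination sites, and no recombinase. The other 4 mice, called mutant here, carried Neurog3f/f together with Villin-CreERT2, a tamoxifen-dependent recombinase under a promoter of the intestinal epithelium. They are used below only to see the same contrast in other animals. Each library is total RNA of a piece of gut, so all cell layers of the piece may contribute.

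The small intestine changes its work along its length. The duodenum receives acid, bile and pancreatic juice and takes up iron, calcium, folate, sugars and fat. The ileum recovers bile acids and vitamin B12, meets more bacteria and holds more Paneth cells, the crypt cells that secrete antimicrobial peptides. Regional identity is set in part by transcription factors such as Gata4 and Pdx1 in the proximal gut and by Hox genes, whose expression follows position along the body axis.

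The 8 libraries held 40.9 to 67.2 M counts, and mitochondrial genes took 1.77 to 3.06% of them. Levels are given in CPM, counts scaled to 1 common library size after normalization by trimmed means of M values (TMM). They are listed for the control mice A, B, C and D, in that order, for each tissue; the letters stand for the mice of the libraries Duo_133_NF, Duo_134_NF, Duo_151_NF and Duo_154_NF. A gene is said to be higher or lower in the ileum where edgeR's quasi-likelihood test, with the mouse as a block, gave a Benjamini-Hochberg adjusted p under 0.05 over all genes tested. Log2 fold changes are ileum minus duodenum, with their standard error (SE), and fold values come from the same fit. CPM is not corrected for gene length, so levels are compared between tissues and never between genes. A gene with almost no counts in 1 tissue could pass the filter for low counts only through the other tissue. Its direction was then fixed beforehand, and its adjusted p adds no support for that direction. Where a tissue had no count, the fold is a lower bound against 3 counts over its 4 libraries, taken from the other tissue's counts pooled over its 4 libraries, so that deeper libraries weigh more than in a mean of the CPM values, and where it had 1 to 3 counts a ratio is given with a 95% counting interval. The labels do not say more than that the mice are separate animals, so the p-values measure the spread between these mice.

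Some libraries stood apart within their tissue, and this touches several results below. The first principal component held 64% of the variance and separated the tissues, from -81.9 to -54.8 in the duodenum and from 58.9 to 80.1 in the ileum. The second held 17.1% and separated mice A and C (34.8 to 39.2) from mice B and D (-43.3 to -31.4) in both tissues. Exocrine pancreas transcripts, summed over 20 genes, was at 37800, 100, 24100 and 110 CPM in the duodenum and at 1590, 148, 1280 and 112 CPM in the ileum. They were thus high in both tissues of mice A and C. In mice B and D the pancreatic lipase gene Pnlip was at 0.194 and 0 CPM in the duodenum, so other listed genes made up those sums. Transcripts of B cell follicles ran the other way: the complement receptor gene Cr2, active in B cells and follicles, was at 0.0814, 6.98, 0.0639 and 13.4 CPM in the duodenum and at 0.194, 28, 0.545 and 27.8 CPM in the ileum. Of 372 genes that differed at least 8-fold, 47% had their smallest difference in mouse B, against 12.4 to 28% in each of the others. Over all tested genes the median absolute log2 difference was smallest in mouse D (0.536, 0.479, 0.612 and 0.46 in mice A to D).

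In the genome as a whole, 5423 genes were higher and 5832 lower in the ileum among 18217 tested, which is 29.8 and 32%, or 61.8% together. Of these, 2597 and 1871 differed at least 2-fold, and 169 and 203 at least 8-fold (0.928 and 1.11%). By sign alone 33.5% were higher and 35.8% lower in the ileum of 4 of 4 mice. The tissues did not overlap for 53.6% of tested genes. The median log2 fold change of all tested genes was -0.0067, so a list can be read against shares of about 30% in each direction and a median near 0. The split depends on the scaling. With library totals alone, which moved the median of all genes by 0.39, 9161 genes were higher and 2832 lower, or 76.4 and 23.6% of calls against 48.2 and 51.8%. Differences below are relative to the main scaling. In bulk tissue, fewer cells of a type and less RNA per cell cannot be told apart. A set of 12 genes of the epithelium as a whole, chosen after seeing the data, had 5 members higher, 3 lower and a median of 0.14. A set chosen in this way cannot show whether the epithelial share was equal between the tissues.

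**Figure D1:**
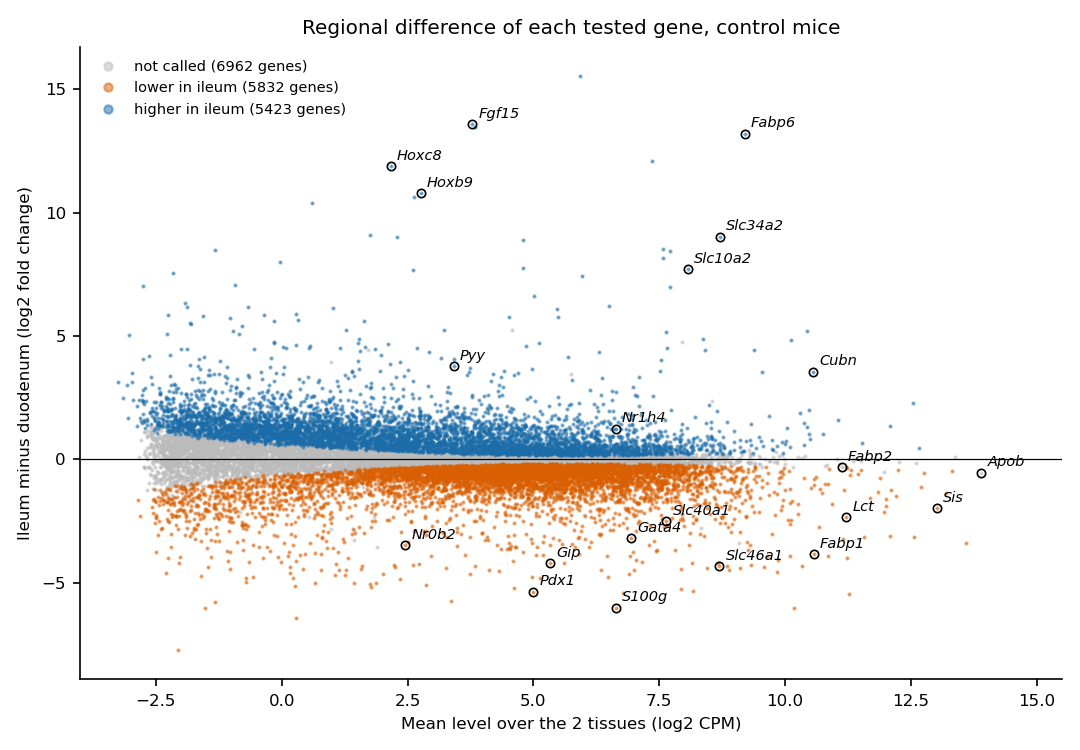
Each point is 1 of the tested genes, with its mean level over both tissues (log2 CPM) on the x axis and its ileum minus duodenum log2 fold change on the y axis, coloured by call. The 5423 higher and 5832 lower genes cover all levels, and the highest points include genes with no duodenum count, such as Fgf15, whose fitted value depends on the prior count.

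The markers Pdx1 and Gata4 were on the duodenal side in every mouse, and some duodenal markers, such as Pdx1, Slc40a1, S100g and Cybrd1, were low in the duodenum of mouse B. Pdx1 (ENSMUSG00000029644), a homeobox factor of the proximal duodenum and pancreas, had duodenum levels of 88.9, 19.2, 82.9 and 57.9 CPM and ileum levels of 2.62, 0.194, 2.57 and 1.17 CPM. Every duodenum lay above every ileum, with mouse B the lowest in both tissues, and the gene was 40.9-fold lower in the ileum (log2 fold change -5.35, SE 0.21, adjusted p = 1.72e-06). Gata4 (ENSMUSG00000021944), the zinc finger factor that maintains jejunal and duodenal identity, was at 230, 207, 223 and 214 CPM in the duodenum and at 22.5, 41.1, 17.9 and 19.6 CPM in the ileum. It was 9.15-fold lower in the ileum (log2 fold change -3.19, SE 0.25, adjusted p = 0.000257). Mouse B had the highest ileum value. Onecut2, a cut homeobox factor, stood at 277, 145, 275 and 287 CPM against 19.8, 5.79, 18.8 and 17.5 CPM and was 16.9-fold lower. The ileal markers Fabp6, Fgf15, Slc10a2, Slc51a and Slc51b did not overlap between tissues, while the duodenal markers Slc40a1 and Cybrd1 overlapped through the low duodenum of mouse B, and Trpv6 was too low to be tested.

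The caudal factors Cdx1 and Cdx2, which specify intestinal epithelium, differed little in size: Cdx1 was 1.46-fold higher (adjusted p = 0.00029) and Cdx2 1.32-fold higher (adjusted p = 0.00436), with overlapping tissues for Cdx2. The call for Cdx2 ended without mice A and C (log2 fold change 0.23, against 0.40). Of 43 tested regional transcription factors 17 were higher and 16 lower, against 29.8 and 32% of all genes, with a median of -0.01. Besides those above, the pioneer factor Foxa1 was 3.47-fold higher (adjusted p = 5.31e-07), while the xenobiotic receptors Nr1i3 (CAR) and Nr1i2 (PXR) were 8.08-fold and 3.32-fold lower (adjusted p = 8.54e-09 and 3.52e-07).

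**Figure D2:**
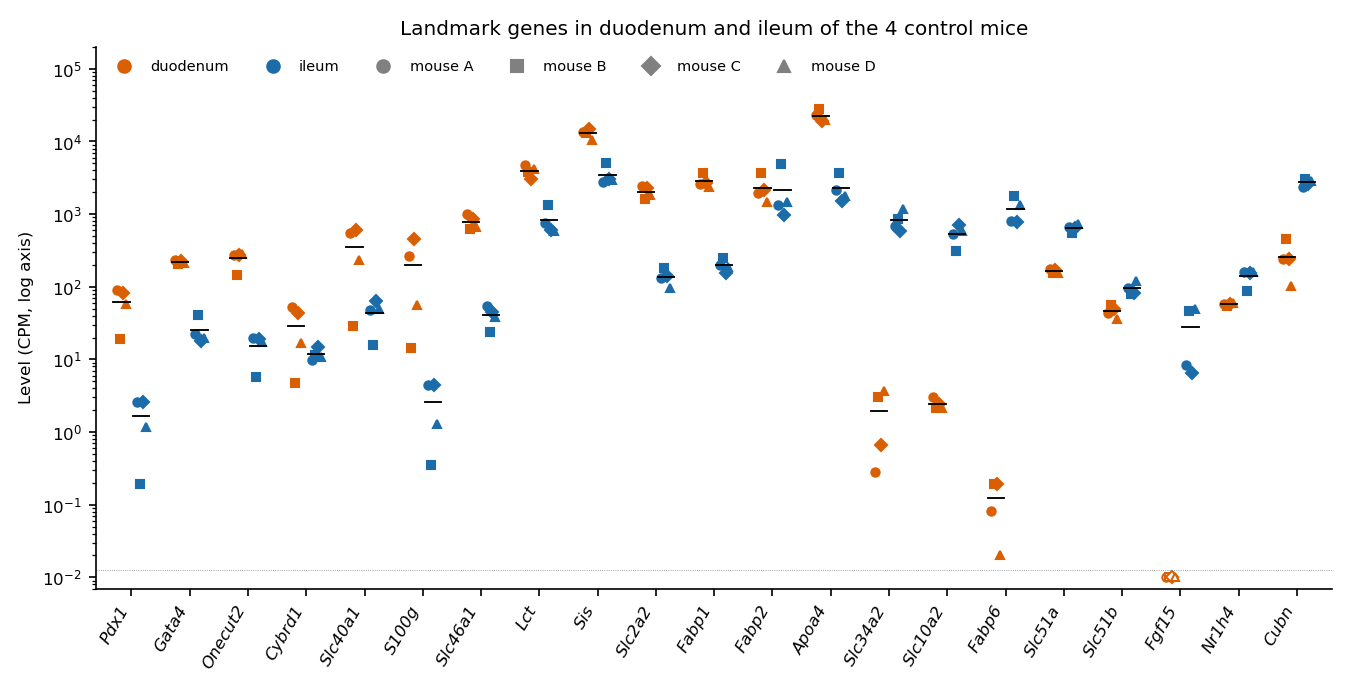
Level in CPM (log axis) of 21 landmark genes in the duodenum (orange) and ileum (blue) of each control mouse, with a symbol per mouse and a black line at the mean of each tissue; open symbols at the lowest level mark a library without a count. The square of mouse B lies below the other duodenum values for Pdx1, Onecut2, Cybrd1, Slc40a1 and S100g, and Fabp2 overlaps between the tissues.

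Hox transcripts, which mark position along the body axis in the gut wall, differed most in the paralogue groups of the distal body. Of 21 tested of 39 Hox genes, 16 were higher in the ileum, 2 lower, and the median log2 fold change was 1.96. All 10 tested genes of paralogue groups 6 to 10 were higher and did not overlap between the tissues (median 4.46). Over all tested genes 29.8% were higher and 53.6% did not overlap. Members such as Hoxc8, Hoxb9 and Hoxc9, with 0 or 1 duodenum counts, and Hoxd9, with 21, passed the low count filter through the ileum alone. For these the filter fixed the direction beforehand. Hoxb8, Hoxb7 and Hoxc6, with 23, 50 and 79 duodenum counts, were also too low in some duodenum libraries to pass without the ileum. The count of 10 of 10 is thus partly set by the filter and cannot be read against the shares of all genes. Hoxa6, Hoxa9, Hoxa10, Hoxc10 and Hoxd10 of these groups were too low to be tested. Of the 11 tested genes of groups 1 to 5, 6 were higher and 2 lower (median 0.84). One of the higher genes, Hoxd4, had 14 duodenum counts and also passed through the ileum alone.

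Hoxc8 (ENSMUSG00000001657) had no count in any duodenum and stood at 7.78, 8.85, 10.3 and 8.82 CPM in the ileum, at least 614-fold higher (adjusted p = 6.43e-07). Hoxb9 (ENSMUSG00000020875) had 1 count over the 4 duodenum libraries and stood at 18.4, 1.57, 19.4 and 14.6 CPM in the ileum, a ratio of 2880 and a counting interval of 516 to 114000 (adjusted p = 7.35e-08). The ileum of mouse B held far less Hoxb9 than the others, but a similar level of Hoxc8. Among genes with too few counts to be tested, Hoxa9 and Hoxa10 were lower in the ileum than in the duodenum of mouse B (0.0389 against 0.613 CPM, and 0 against 0.242 CPM), and Hoxa6 in mouse D (0 against 0.0602 CPM). Hoxc9 stood at 1.47, 0.233, 1.65 and 0.827 CPM in the ileum against 1 duodenum count, and Hoxa7 at 1.96, 2.68, 1.81 and 2.54 CPM against 0.204, 0.548, 0.234 and 0.281 CPM. The anterior gene Hoxa2 ran the other way, with duodenum levels of 1.02, 0.951, 0.873 and 1.18 CPM and ileum levels of 0.464, 0.525, 0.583 and 0.53 CPM (log2 fold change -0.93, SE 0.26, adjusted p = 0.00977). Hoxa4 was also lower (log2 fold change -1.09, SE 0.39, adjusted p = 0.0345) with overlapping tissues. Neither lower call was firm: both ended with library totals alone (log2 fold changes -0.54 and -0.69) or without mouse A (-0.84 and -1.02), and Hoxa4 also without mouse B (-0.69) or C (-1.01).

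**Figure D3:**
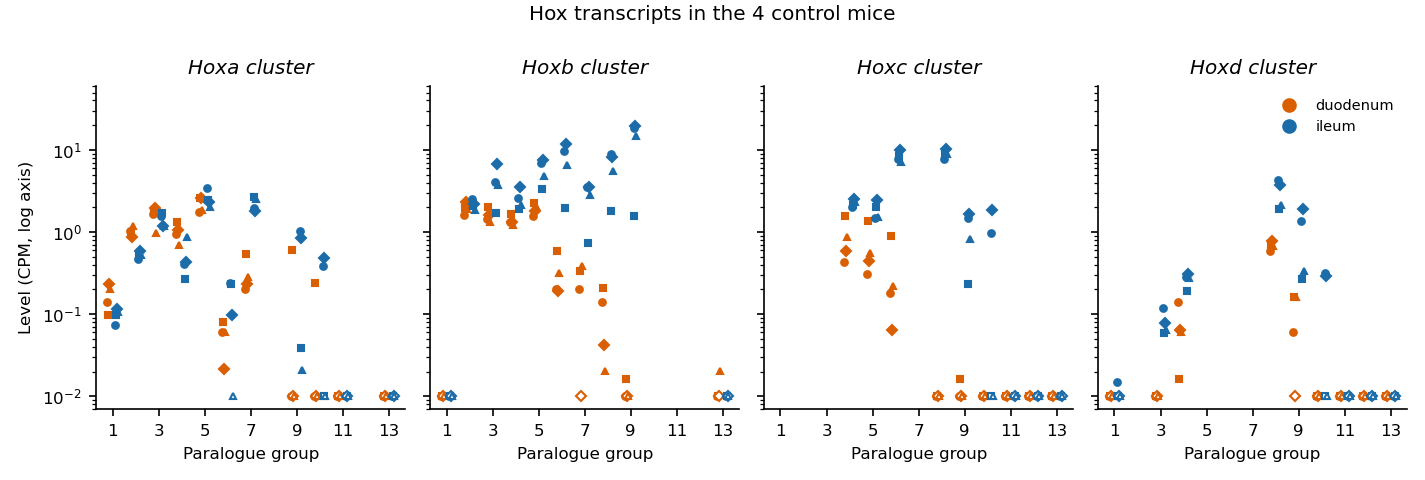
Level in CPM (log axis) of each Hox gene against its paralogue group, 1 panel per cluster, in the duodenum (orange) and ileum (blue) of the 4 control mice; symbols per mouse are as for the landmark genes and open symbols mark libraries without a count. The 10 tested genes of groups 6 to 10 are higher in the ileum. Some untested genes run the other way in 1 mouse, such as Hoxa9 in mouse B.

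Genes of bile acid recovery were mainly ileal. Bile acids enter the ileal enterocyte through Slc10a2, are bound inside by Fabp6, leave through the Slc51a and Slc51b dimer, and activate the receptor Nr1h4 (FXR), which induces the hormone Fgf15. Slc10a2 (ENSMUSG00000023073) was at 2.99, 2.14, 2.47 and 2.13 CPM in the duodenum and at 528, 310, 700 and 592 CPM in the ileum, 211-fold higher (log2 fold change 7.72, SE 0.21, adjusted p = 7.37e-08). Fabp6 (ENSMUSG00000020405) rose from 0.0814, 0.194, 0.192 and 0.0201 CPM to 811, 1760, 773 and 1350 CPM, 9430-fold higher in the ileum (log2 fold change 13.20, SE 0.34, adjusted p = 8.96e-08). Fgf15 (ENSMUSG00000031073) had no duodenum count and ileum levels of 8.32, 46.4, 6.5 and 48.9 CPM, at least 1780-fold higher (adjusted p = 1.01e-07). Fgf15 and Fabp6, with 0 and 26 counts over the 4 duodenum libraries, passed the low count filter through the ileum alone. For these 2 genes the filter thus fixed the direction beforehand. In the ileum, Fgf15 and Fabp6 were higher in mice B and D than in mice A and C, while Slc10a2 was lowest in mouse B.

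The basolateral exporters differed less between regions. Slc51a was at 175, 156, 170 and 153 CPM in the duodenum and was 3.91-fold higher in the ileum (log2 fold change 1.97, SE 0.10, adjusted p = 3.52e-07). Slc51b was 2.04-fold higher (adjusted p = 0.0107), a call that ended without mouse A and without the low count filter. Nr1h4 stood at 58.8, 54.7, 57.5 and 59.6 CPM against 159, 88.7, 155 and 161 CPM and was 2.38-fold higher (adjusted p = 8e-05), with the lowest ileum value in mouse B. Nr0b2 (SHP), a repressor that FXR is known to induce, was 11-fold lower in the ileum, at 0.703, 1.17, 0.292 and 1.63 CPM against 11.4, 5.72, 9.79 and 13.2 CPM (log2 fold change -3.46, SE 0.45, adjusted p = 0.00182). Of 14 tested bile acid genes 9 were higher and 5 lower, with a median of 1.14. The other lower members included the apical exporter Abcc2, 3.99-fold lower (adjusted p = 9.21e-05), and the basolateral exporter Abcc3, 1.86-fold lower (adjusted p = 5.12e-05).

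Several other ileal transporters showed near on and off patterns. Slc34a2, the sodium phosphate transporter of the brush border, had duodenum levels of 0.285, 3.05, 0.66 and 3.71 CPM and ileum levels of 690, 849, 592 and 1190 CPM, 518-fold higher (log2 fold change 9.02, SE 0.68, adjusted p = 0.000859). Slc5a8, which takes up lactate and short chain fatty acids, stood at 0.102, 0.0484, 0.0851 and 0.0602 CPM against 295, 289, 337 and 396 CPM, 4380-fold higher (log2 fold change 12.10, SE 0.16, adjusted p = 1.17e-10). The tissues did not overlap for either gene. Slc5a8, with 15 counts over the 4 duodenum libraries, passed the low count filter through the ileum alone, which fixed its direction beforehand. Tmigd1, an adhesion molecule of brush border cells, was 126-fold higher (adjusted p = 0.000258), and Trpm6, the magnesium channel of apical membranes, 69.3-fold higher at 102, 61, 89.5 and 94.5 CPM in the ileum (adjusted p = 0.000142).

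Other genes absent from the duodenum varied strongly between the ileum libraries. Slc6a14, a broad amino acid transporter, had no duodenum count and stood at 160, 0.7, 299 and 28.9 CPM in the ileum, at least 8780-fold higher (adjusted p = 2.85e-08). Abca12, a lipid transporter, also had none and stood at 58.5, 1.07, 44.6 and 9.84 CPM, at least 2150-fold higher (adjusted p = 1.17e-07). Both were high in mice A and C and lowest in mouse B, so the bound rests mainly on 2 mice. Both also passed the low count filter through the ileum alone, which fixed their direction beforehand. The call for Slc6a14 ended without the mouse as a block. Enpp7, the alkaline sphingomyelinase, had the opposite order in the ileum, at 77.8, 1130, 55.6 and 128 CPM, and was 12.1-fold higher (adjusted p = 0.00453).

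Vitamin B12 uptake depends on the ileal receptor cubam, made of cubilin and amnionless. Cubn was at 244, 454, 239 and 103 CPM in the duodenum and at 2330, 3090, 2640 and 2900 CPM in the ileum, 11.8-fold higher (log2 fold change 3.56, SE 0.39, adjusted p = 0.000871). Its partner Amn differed less (log2 fold change 0.58, SE 0.068, adjusted p = 4.8e-05). Of 7 tested cobalamin genes 3 were higher and 4 lower, and none of the 4 lower calls held with library totals alone or without mice A and C. The lower members were small in size, such as Lmbrd1, a lysosomal exporter of the vitamin (log2 fold change -0.52), and Tcn2, its plasma carrier (-0.47).

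Iron and folate uptake lay on the duodenal side. Of 14 tested iron genes 10 were lower in the ileum and none higher, with a median of -1.23 against a background of 32% lower. Slc46a1 (ENSMUSG00000020829), the proton-coupled folate transporter, had duodenum levels of 989, 627, 858 and 666 CPM and ileum levels of 54.1, 23.9, 45.1 and 38.7 CPM, 19.9-fold lower (log2 fold change -4.31, SE 0.13, adjusted p = 1.3e-08). The ferritin heavy chain gene Fth1 stood at 10100, 4410, 8490 and 8050 CPM against 919, 784, 843 and 995 CPM and was 8.43-fold lower (adjusted p = 7.38e-07). Ireb2, an iron-sensing RNA-binding protein, was 3.05-fold lower (adjusted p = 2.04e-06).

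The membrane transporters of iron depended on the mouse. Slc40a1, the ferroportin that exports iron into blood, was at 542, 29, 613 and 233 CPM in the duodenum and at 48.3, 15.6, 63.6 and 49.3 CPM in the ileum. The duodenum of mouse B lay below 3 of the 4 ileum libraries, although each mouse had less in its own ileum. The gene was 5.70-fold lower (log2 fold change -2.51, SE 0.59, adjusted p = 0.0295), and this call ended without mouse A (-2.14), C (-2.23) or D (-2.62) and without the low count filter. Slc11a2, the apical iron importer, missed the threshold at 211, 76.9, 306 and 77 CPM against 52.1, 38.8, 50.2 and 56.9 CPM (log2 fold change -1.51, SE 0.47, adjusted p = 0.0586), although the tissues did not overlap. It passed with the DESeq2 test (-1.49), without the block (-1.76) and without mouse D (-1.88). Cybrd1, the duodenal ferric reductase, did not pass at 52, 4.66, 43 and 17 CPM against 9.92, 11.4, 14.6 and 10.8 CPM (log2 fold change -0.91, SE 0.78, adjusted p = 0.384). It passed without mouse B (-1.52).

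The calcium-binding protein gene S100g, a target of vitamin D, showed the same order of mice. It had duodenum levels of 262, 14.5, 453 and 56 CPM and ileum levels of 4.4, 0.35, 4.38 and 1.29 CPM, 64-fold lower (log2 fold change -6.00, SE 0.25, adjusted p = 7.95e-06). The vitamin D receptor gene Vdr was 2.38-fold lower (adjusted p = 3.47e-05). Of 10 tested calcium and magnesium genes 5 were higher and 3 lower.

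For Reg1, Akp3 and Tmprss15, mouse B had the lowest level in both tissues. Reg1, a secreted lectin gene, was at 3430, 1100, 2990 and 1620 CPM in the duodenum and at 65.6, 11.9, 50.6 and 26.3 CPM in the ileum, 64.5-fold lower (log2 fold change -6.01, SE 0.17, adjusted p = 1.24e-08). Akp3, an intestinal alkaline phosphatase, stood at 7480, 553, 6940 and 4210 CPM against 214, 8.57, 204 and 83.8 CPM, 44-fold lower (adjusted p = 4.79e-08). Tmprss15, the enteropeptidase that activates trypsinogen, stood at 612, 189, 611 and 489 CPM against 18.2, 2.88, 22.1 and 12.9 CPM, 38.2-fold lower (adjusted p = 2.18e-06). In each of these genes mouse B was lowest in both tissues.

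As a share of the duodenum level of the same mouse, the ileum held 1.08 to 1.91% for Reg1, 1.55 to 2.94% for Akp3, 1.52 to 3.62% for Tmprss15, 0.967 to 2.41% for S100g and 1.01 to 3.10% for Pdx1. The share was 3.99 to 7.15% for Onecut2. The summed exocrine pancreas list stood at 4.22 and 5.33% in mice A and C, and at 148 and 102% in mice B and D. In mice B and D, however, the trypsin genes Try4 and Try5 had 0 CPM in both tissues. The elastase gene Cela3b stood at 0.129 and 0.0201 CPM in their duodenum. The sums of mice B and D thus came from other listed genes and do not show equal pancreas RNA in the 2 tissues. Tff2, very low in mice B and D, stood at 60.3 and 35.2% there and at 3.53 and 4.17% in mice A and C. The reverse shares in the duodenum were 0.00148 to 0.0248% for Fabp6, 0.0152 to 0.0345% for Slc5a8 and 0.353 to 0.692% for Slc10a2. Reg1, Akp3, Tmprss15, S100g, Fabp6 and Slc5a8 are among the 10 largest differences of their direction, so small shares follow from that choice. The ileal genes Pyy and Nts had fitted duodenum to ileum ratios of 0.0722 and 0.0878. Among genes of at least 5 CPM in the higher tissue, 23 were at least 64-fold higher in the ileum and 2 (S100g and Reg1) at least 64-fold lower. Whether the ileum tissue itself held these low levels was not tested.

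The remaining members of the 10 largest lower differences were Otop3, a proton channel (42-fold), the sulfotransferase gene Sult6b2 (40.1-fold), Nat8f2 (36.4-fold), Cyp2c29, a cytochrome P450 (33.4-fold), and the little studied AC102159.1 (52.8-fold) and 4931428L18Rik (34.1-fold). None of these overlapped between the tissues. Pdx1, 40.9-fold lower, was left out of this ranking because it is also in the list of duodenal gland and gastric genes. The remaining members of the 10 largest higher differences were Saa1, an acute phase protein gene that responds to bacteria, and Gsdmc3, a gasdermin gene. Saa1 stood at 3.1, 0.292, 26.5 and 19.3 CPM in the ileum against 1 duodenum count, a ratio of 2390 and a counting interval of 429 to 94500. Gsdmc3 stood at 9.57, 4.71, 8.77 and 3.73 CPM against 2 duodenum counts, a ratio of 724 and a counting interval of 200 to 5980. Saa1 and Gsdmc3 passed the low count filter through the ileum alone, which fixed their direction beforehand. Intervals and bounds cover counting error only.

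Genes of fat absorption were mostly lower in the ileum. Of 29 tested lipid and chylomicron genes 23 were lower in the ileum and none higher, with a median of -1.25. Fabp1 (ENSMUSG00000054422), a cytosolic fatty acid carrier, had duodenum levels of 2610, 3700, 2660 and 2360 CPM and ileum levels of 199, 247, 157 and 190 CPM, 14.3-fold lower (log2 fold change -3.84, SE 0.13, adjusted p = 2.55e-08). Apoa4 (ENSMUSG00000032080), an apolipoprotein of chylomicrons, stood at 23400, 27700, 18900 and 19800 CPM against 2130, 3660, 1500 and 1760 CPM and was 10.4-fold lower (adjusted p = 4.07e-07). Mttp, which loads lipid onto apolipoprotein B, was 3.67-fold lower (log2 fold change -1.88, SE 0.16, adjusted p = 7.29e-06).

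Fabp2, the other major fatty acid carrier of enterocytes, did not pass, at 1970, 3660, 2140 and 1490 CPM in the duodenum and at 1350, 4870, 963 and 1470 CPM in the ileum (log2 fold change -0.32, SE 0.24, adjusted p = 0.284). The tissues overlapped and mouse B was highest in both. Apob stood at 20700, 12900, 17000 and 21000 CPM against 10200, 15800, 10100 and 13800 CPM (log2 fold change -0.53, SE 0.22, adjusted p = 0.0578), lower in 3 of 4 mice, and passed without mouse B (-0.76), with the DESeq2 test (-0.50) and without the block (-0.52). The cholesterol importer gene Npc1l1 stood at 709, 440, 575 and 669 CPM against 463, 941, 512 and 720 CPM and did not pass (log2 fold change 0.10, SE 0.29, adjusted p = 0.782).

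Sterol handling split by direction. Of 24 tested genes of cholesterol synthesis 14 were higher in the ileum and 4 lower, with a median of 0.41. The sterol exporters Abca1 and Abcg1 were 2.84-fold and 3.55-fold higher (adjusted p = 4.33e-06 and 1.93e-06). Scarb1, a receptor for high density lipoprotein, was 8.69-fold lower with no overlap between the tissues (adjusted p = 4.93e-05), and the exporter gene Abcg5 was 1.97-fold lower (adjusted p = 3.57e-05). Fatty acid oxidation genes had 23 of 25 tested members lower, none higher, and a median of -1.11, among them the ketone body enzyme gene Bdh1, 2.47-fold lower (adjusted p = 4.52e-07).

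Genes of sugar digestion and transport were also lower. Of 24 tested carbohydrate genes 21 were lower and 1 higher, with a median of -1.90. Lactase, encoded by Lct, was at 4690, 3750, 3060 and 4170 CPM in the duodenum and at 761, 1350, 605 and 580 CPM in the ileum, 5-fold lower (log2 fold change -2.32, SE 0.22, adjusted p = 4.4e-05). Sucrase-isomaltase, encoded by Sis, stood at 13700, 13300, 14900 and 10500 CPM against 2790, 5020, 3050 and 2940 CPM and was 3.88-fold lower (log2 fold change -1.96, SE 0.18, adjusted p = 1.14e-05). The ileum of mouse B was the highest ileum value for both enzymes.

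The apical glucose transporter gene Slc5a1 was 4.40-fold lower (log2 fold change -2.14, SE 0.16, adjusted p = 2.43e-06). The basolateral exporter gene Slc2a2 differed more, at 2420, 1640, 2290 and 1840 CPM against 132, 181, 139 and 95.3 CPM, 15.2-fold lower (log2 fold change -3.92, SE 0.20, adjusted p = 9e-07). Trehalase, encoded by Treh, was 5.94-fold lower (adjusted p = 6.15e-07). The 1 higher member, the glucose transporter gene Slc2a1, had a log2 fold change of 0.30 (adjusted p = 0.0174), overlapping tissues, and no call without mouse A (0.24) or without the block (0.30).

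Protein digestion was divided between enzymes. Of 19 tested peptidase genes 11 were higher in the ileum and 6 lower, with a median of 0.74. The brush border peptidase gene Naaladl1 had duodenum levels of 62.4, 120, 39.1 and 94.4 CPM and ileum levels of 2570, 3030, 2350 and 2860 CPM, 37-fold higher (log2 fold change 5.21, SE 0.23, adjusted p = 5.89e-07). Xpnpep2, an aminopeptidase for bonds next to proline, was 21.6-fold higher, the metalloprotease gene Mep1a 11.8-fold higher and the glutamyl aminopeptidase gene Enpep 4.06-fold higher (adjusted p = 9.01e-09, 2.72e-08 and 0.00053). Lower members included enteropeptidase, above, and the neutral endopeptidase gene Mme, 6.59-fold lower at 359, 579, 371 and 431 CPM in the ileum against 3120, 2850, 2820 and 2510 CPM in the duodenum (adjusted p = 5.91e-07).

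The peptide transporter gene Slc15a1 did not pass, at 597, 650, 513 and 511 CPM in the duodenum and at 559, 1180, 495 and 530 CPM in the ileum (log2 fold change 0.19, SE 0.16, adjusted p = 0.328). Its ileum value in mouse B stood apart, and it passed as higher with library totals alone (0.58). Of 23 tested amino acid transporter genes 7 were higher and 8 lower, near the shares over all genes, and with library totals alone 12 were higher and 5 lower. Without the block 5 were lower. Slc1a1, which carries glutamate and aspartate, was 6.61-fold higher (adjusted p = 1.18e-07), and Slc7a8, a basolateral exchanger of neutral amino acids, 2.56-fold lower (adjusted p = 1.95e-05).

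Detoxification enzymes were lower in the ileum as a group. Of 24 tested cytochrome P450 genes 19 were lower and 3 higher (median -1.45), and of 38 tested conjugation genes 30 were lower and 1 higher (median -1.35). Cyp3a11, a drug-metabolising enzyme induced through PXR, was at 612, 534, 620 and 399 CPM in the duodenum and at 33.6, 26.9, 34.5 and 22 CPM in the ileum, 18.5-fold lower (log2 fold change -4.21, SE 0.093, adjusted p = 2.95e-09). Cyp2b10, a known target of CAR, was 12.8-fold lower (adjusted p = 8.4e-08), beside the lower Nr1i2 and Nr1i3 given above. A link between the levels of these receptors and of the enzymes was not tested. Gsta4, a glutathione transferase gene, was 12.9-fold lower (adjusted p = 8.54e-09). Members of these families share sequence, so levels of single members are uncertain. The drug efflux pump gene Abcb1a was the 1 conjugation list member that was higher, 1.86-fold with overlapping tissues (adjusted p = 0.000167).

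Vitamin A and purine genes followed the same direction. Rbp2, the retinol carrier of enterocytes, stood at 3710, 5420, 3370 and 3840 CPM against 379, 686, 322 and 401 CPM and was 9.38-fold lower (adjusted p = 7.35e-08). The alcohol dehydrogenase gene Adh1 was 12.5-fold lower (adjusted p = 7.88e-08), and 14 of 24 tested vitamin A genes were lower and 5 higher (8 higher with library totals alone, 2 or 3 with 1 mouse left out). Bco1, which cleaves beta-carotene, did not pass at 5.8, 3.95, 3.53 and 4.25 CPM against 9.48, 2.02, 7.7 and 6.11 CPM (log2 fold change 0.39, SE 0.34, adjusted p = 0.365). It was higher in 3 of 4 mice and passed without mouse B (0.82). Ada, adenosine deaminase, and Enpp3, an ectonucleotidase, are made near the villus tip, and were 10.2-fold and 11-fold lower (adjusted p = 9.19e-08 and 9.56e-08); 11 of 15 tested genes of that list were lower and 1 higher.

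**Figure D4:**
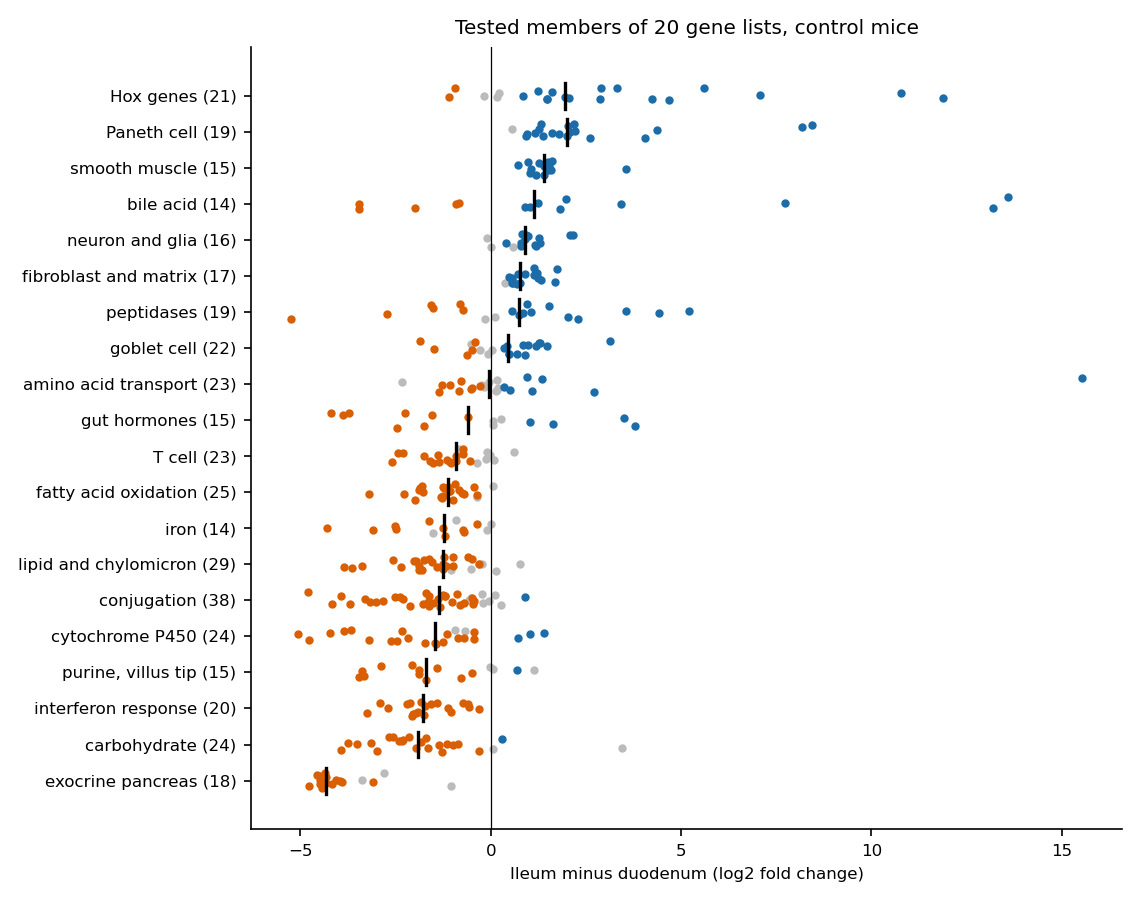
Ileum minus duodenum log2 fold change of each tested member of 20 gene lists (number tested in brackets), in blue where higher, orange where lower and grey where not called, with a black bar at the list median. Medians run from 2.01 for Paneth cell genes and 1.96 for Hox genes to -1.90 for carbohydrate genes and -4.32 for exocrine pancreas genes, whose members vary between mice.

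Promoter sequence is shown for 5 genes of sugar, fat and bile acid uptake that differ strongly between the regions, with short motifs of regional factors marked. The sequences are the 250 bases before the annotated start in RefSeq (build GRCm38.p6), printed 5′ to 3′ on the strand of the gene. The motifs searched, on both strands, were AGATAA for GATA factors, GTTAAT for HNF1, TTTATG for CDX factors and CAAAGTCC for HNF4; capitals mark a match on either strand. Lct (chr1:128328319-128328568, minus strand), Sis (chr3:72967864-72968113, minus strand) and Fabp1 (chr6:71199629-71199878, plus strand) were lower in the ileum. Fabp6 (chr11:43601563-43601812, minus strand) and Slc10a2 (chr8:5105288-5105537, minus strand) were higher.
Lct: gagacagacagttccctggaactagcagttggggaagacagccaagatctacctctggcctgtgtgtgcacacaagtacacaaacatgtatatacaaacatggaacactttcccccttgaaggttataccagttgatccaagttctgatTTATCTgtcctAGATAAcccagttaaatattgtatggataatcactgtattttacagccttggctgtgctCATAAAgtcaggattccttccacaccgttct
Sis: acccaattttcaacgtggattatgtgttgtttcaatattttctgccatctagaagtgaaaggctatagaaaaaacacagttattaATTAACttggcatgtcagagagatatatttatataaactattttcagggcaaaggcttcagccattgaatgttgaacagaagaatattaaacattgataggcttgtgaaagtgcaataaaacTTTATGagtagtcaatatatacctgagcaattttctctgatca
Fabp1: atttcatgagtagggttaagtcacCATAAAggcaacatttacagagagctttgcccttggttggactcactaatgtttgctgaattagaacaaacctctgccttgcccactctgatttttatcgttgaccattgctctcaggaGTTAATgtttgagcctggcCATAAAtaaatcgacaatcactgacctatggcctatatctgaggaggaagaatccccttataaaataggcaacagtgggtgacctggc
Fabp6: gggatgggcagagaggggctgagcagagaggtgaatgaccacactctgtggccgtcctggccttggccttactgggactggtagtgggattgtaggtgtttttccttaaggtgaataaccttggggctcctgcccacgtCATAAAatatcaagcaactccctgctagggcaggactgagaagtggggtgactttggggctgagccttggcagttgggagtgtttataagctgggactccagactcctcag
Slc10a2: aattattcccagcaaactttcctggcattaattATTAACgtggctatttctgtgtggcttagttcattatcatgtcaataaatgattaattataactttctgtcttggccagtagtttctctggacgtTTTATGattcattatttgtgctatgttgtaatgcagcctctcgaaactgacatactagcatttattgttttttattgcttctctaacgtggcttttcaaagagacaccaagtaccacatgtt

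Of the 5, Lct alone had GATA letters, at 101 to 96 and at 90 to 85 bases before the start. CDX letters were found in each of the 5, at 2 places in Fabp1, and HNF1 letters in Sis, Fabp1 and Slc10a2. The HNF4 letters were not in these windows. Of the 53 landmark genes 44 had a promoter in the table. Over all 32851 promoters AGATAA was found in 9.99%, and over tested genes in 7.87%. It was found for 36 of 156 genes at least 8-fold lower in the ileum (23.1%) and for 14 of 109 at least 8-fold higher (12.8%), among genes with a promoter in the table. In these sets and in the tested genes, a gene counts where any of its promoters matched. The share over all promoters counts each promoter. TTTATG was in 16.7 and 15.6% of these sets, against 7.75% of tested genes and 10.8% of all promoters, and GTTAAT in 13.5 and 8.26%, against 5.55% and 6.43%. CAAAGTCC was in 10 of the 156 lower genes (6.41%) and in 0 of the 109 higher ones, against 1.62% of tested genes and 1.20% of all promoters. The 10 include the exocrine pancreas genes Cela2a and Ctrl. They also include the related cytochrome P450 genes Cyp2c66 and Cyp2c70, and Cyp3a11 and Cyp3a16, so they are not 10 independent cases. These shares describe letters, the base composition of the sets was not compared, and no test was made.

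Gut hormone genes divided by region. Of 15 tested hormone genes 8 were lower in the ileum and 4 higher. Gip, the K cell incretin, had duodenum levels of 76.5, 100, 73.5 and 53.3 CPM and ileum levels of 4.16, 7.62, 2.86 and 2.74 CPM, 18.4-fold lower (log2 fold change -4.20, SE 0.15, adjusted p = 3.92e-07). Cck, cholecystokinin, was 13.3-fold lower and Ghrl, ghrelin, 14.7-fold lower (adjusted p = 1.3e-08 and 1.43e-06). Tph1, the first enzyme of serotonin synthesis, was 4.78-fold lower and Sst, somatostatin, 2.88-fold lower (adjusted p = 5.2e-08 and 4.81e-07).

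Pyy, a distal satiety hormone, was at 1.91, 0.564, 2.55 and 1.06 CPM in the duodenum and at 27.2, 18.3, 20.7 and 12.9 CPM in the ileum, 13.9-fold higher (log2 fold change 3.79, SE 0.32, adjusted p = 0.00024). Nts, neurotensin, was 11.4-fold higher at 31.6, 82.2, 35 and 38.2 CPM in the ileum against 2.26, 10.3, 1.81 and 4.17 CPM in the duodenum (adjusted p = 5.24e-05), with mouse B highest in both tissues. Gcg, the precursor of GLP-1, differed by 2.03-fold with overlapping tissues, at 55.7, 41.8, 55 and 31.2 CPM in the ileum against 19.7, 34.1, 16.7 and 20.7 CPM in the duodenum (log2 fold change 1.02, SE 0.30, adjusted p = 0.038). It was higher in 4 of 4 mice, but the call ended without mouse A (0.88), C (0.79) or D (1.17) and without the low count filter (1.01). Sct, secretin, was 1.51-fold lower (adjusted p = 0.0011), a call that ended with library totals alone (-0.21).

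Neurog3 itself, which starts the endocrine lineage, had duodenum levels of 2.61, 2.82, 2.62 and 2.47 CPM and ileum levels of 1.05, 1.05, 0.972 and 0.572 CPM, 2.92-fold lower (log2 fold change -1.55, SE 0.21, adjusted p = 0.000128). The same direction held for Nkx2-2 and Lmx1a, factors of the same lineage, which were 2.55-fold and 2.12-fold lower (adjusted p = 0.000663 and 0.00199). Of 18 tested endocrine transcription factor genes 9 were lower and 2 higher, but the count of lower genes was 5 without mouse D and 4 with library totals alone. Prdm16, a listed factor that is also expressed outside the lineage, was 10-fold lower (adjusted p = 1.36e-08).

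Paneth cell genes were higher in the ileum almost without exception: 18 of 19 tested were higher, none lower, and the median was 2.01, against a background of 29.8% higher. Lysozyme, encoded by Lyz1, was at 2470, 2170, 2100 and 2660 CPM in the duodenum and at 4580, 8280, 4600 and 7780 CPM in the ileum, 2.59-fold higher (log2 fold change 1.37, SE 0.18, adjusted p = 0.000112). The defensin gene Defa22 stood at 0.773, 1.5, 1.06 and 2.03 CPM against 336, 476, 292 and 403 CPM, 287-fold higher (adjusted p = 1.3e-08). Mmp7, the protease that activates defensins, was 3.45-fold higher (adjusted p = 1.01e-07). Defensin genes are near-identical copies, so the level of a single copy is uncertain, while Lyz1 and Mmp7 do not belong to that family.

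Epithelial genes that respond to bacteria were also ileal. Of 18 such genes tested 11 were higher and 3 lower, with a median of 1.47. Nos2, the inducible nitric oxide synthase, stood at 0.712, 0.516, 0.702 and 1.02 CPM against 130, 122, 101 and 143 CPM, 170-fold higher (log2 fold change 7.41, SE 0.13, adjusted p = 1.38e-09). The antimicrobial lectin genes Reg3g and Reg3b were 21.6-fold and 28.2-fold higher (adjusted p = 0.00044 and 0.00232), with Reg3b at 1140, 827, 2610 and 3980 CPM in the ileum against 39.1, 63.1, 32.1 and 182 CPM in the duodenum. Nox1, a superoxide-generating oxidase, was 37.6-fold higher and the flagellin receptor gene Tlr5 4.55-fold higher (adjusted p = 2.16e-06 and 1.29e-05). With 23 counts over the 4 duodenum libraries, Nox1 passed the low count filter through the ileum alone. Il18, a cytokine gene, was the most different of the lower members, 11.6-fold lower at 5.82, 13.6, 10.4 and 15.7 CPM in the ileum against 125, 130, 150 and 97.9 CPM in the duodenum (adjusted p = 0.00177).

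Goblet cell genes were mixed, with 13 of 22 tested higher and 5 lower. Muc2, the secreted mucin, had duodenum levels of 596, 573, 862 and 599 CPM and ileum levels of 3120, 1000, 2230 and 1580 CPM, 2.80-fold higher (log2 fold change 1.49, SE 0.24, adjusted p = 0.00173). Atoh1, the factor that starts the secretory lineage, was 2.44-fold higher (adjusted p = 8.18e-06). The membrane mucin gene Muc13 was 1.52-fold lower and the trefoil peptide gene Tff3 1.39-fold lower (adjusted p = 0.00184 and 0.00304), and both calls ended with library totals alone (log2 fold changes -0.21 and -0.083). Among stem cell genes, Lgr5, the crypt base marker, was at 8.59, 9.59, 8.43 and 10.3 CPM in the duodenum and at 29.9, 22.9, 34.7 and 23.8 CPM in the ileum, 2.98-fold higher (adjusted p = 2.91e-05), and Axin2, a Wnt target, was 2.25-fold higher (adjusted p = 8.7e-06). Cdk1, a cell cycle kinase of the same list, was 1.48-fold lower (adjusted p = 0.000291). The list had 7 members higher and 8 lower of 24 tested, but with library totals alone 11 were higher and 0 lower, so the lower calls rest on the scaling. Without mouse A or without mouse D the list had 4 lower members.

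Interferon response genes were lower in the ileum in every case: 20 of 20 tested, with a median of -1.78 against a background of 32% lower. Usp18, a brake on interferon signalling, had duodenum levels of 32.7, 24.6, 48.2 and 17.9 CPM and ileum levels of 4.17, 2.7, 3.27 and 2.27 CPM, 9.56-fold lower (log2 fold change -3.26, SE 0.16, adjusted p = 7.91e-07). Ifit1, an antiviral RNA-binding protein gene, was 6.48-fold lower at 25.6, 11, 18.8 and 10.8 CPM in the ileum against 129, 68.5, 170 and 66.6 CPM in the duodenum (adjusted p = 9.97e-07). In both genes and both tissues mice A and C lay above mice B and D.

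Immune cell genes differed by type. Of 23 tested T cell genes 16 were lower and none higher (median -0.91), among them Gzmb, the cytotoxic protease of intraepithelial lymphocytes, 5.43-fold lower (adjusted p = 3.89e-07), and Cd8a, 2.63-fold lower (adjusted p = 3.23e-05). Of 16 tested macrophage and dendritic cell genes 11 were lower and 1 higher. The complement genes C1qa and C1qb were 2.24-fold and 2.15-fold lower (adjusted p = 5.46e-06 and 1.68e-05), and Cd163, a scavenger receptor, 3.19-fold higher (adjusted p = 2.11e-05). With library totals alone the macrophage counts were 6 lower and 3 higher. Among 11 tested MHC class II genes only Ciita passed (log2 fold change 0.47), and the invariant chain gene Cd74 did not, at 965, 701, 864 and 1010 CPM against 1580, 1180, 636 and 869 CPM (log2 fold change 0.20, SE 0.22, adjusted p = 0.465).

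Some B cell and follicle genes, such as Cr2, were high in mice B and D, while others were even over the mice. Cr2, whose levels are given above, was 3.03-fold higher with the mouse as a block (adjusted p = 0.000469). It was higher in 4 of 4 mice, and the tissues overlapped. Of 19 tested B and plasma cell genes 8 were higher and 3 lower, and of 15 tested follicle genes 6 were higher and none lower. Without the block these counts of higher genes were 0 and 2, and without mice A and C they were 13 and 11. Marcksl1 was at 5.11, 7.58, 5.58 and 8.02 CPM in the duodenum and at 31.3, 23.4, 24.3 and 34.5 CPM in the ileum, with no overlap between the tissues (4.32-fold higher, adjusted p = 4.71e-06). The part of organised lymphoid tissue in other differences was not tested.

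Smooth muscle, fibroblast and nerve genes were higher in the ileum, and endothelial genes were mixed. All 15 tested smooth muscle genes were higher (median 1.40), as were 16 of 17 fibroblast and matrix genes (median 0.78) and 13 of 16 neuron and glia genes (median 0.91; 8 without mice A and C). Of 10 tested endothelial genes 4 were higher (8 by library totals alone, 2 without mice A and C) and 1 lower (median 0.23), the lower one being Plvap (1.94-fold lower, adjusted p = 6.35e-05). Acta2, smooth muscle actin, had duodenum levels of 194, 199, 206 and 162 CPM and ileum levels of 619, 478, 656 and 445 CPM, 2.86-fold higher (log2 fold change 1.51, SE 0.10, adjusted p = 1.26e-06). Des, desmin, was 2.29-fold higher, the BMP antagonist gene Grem1 3.22-fold higher, and Nos1, the synthase of inhibitory neurons, 4.24-fold higher (adjusted p = 2.75e-06, 1.82e-06 and 3.76e-06). Hox genes are known to be expressed in this wall as well as in the epithelium. The part of wall RNA in the Hox and other differences was not tested.

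Duodenal gland and pancreatic transcripts followed the mice. Tff2, the trefoil peptide of Brunner's glands, was at 51.8, 0.0645, 50.8 and 0.0602 CPM in the duodenum and at 1.82, 0.0389, 2.12 and 0.0212 CPM in the ileum, 24.7-fold lower with the block (log2 fold change -4.63, SE 0.26, adjusted p = 2.62e-06). Pnlip, pancreatic lipase, stood at 5970, 0.194, 3860 and 0 CPM against 247, 0.0583, 214 and 0 CPM. Both were high in mice A and C, and for both genes the tissues overlapped. Of 18 tested exocrine pancreas genes 15 were lower and none higher, with a median of -4.32. Without the block 0 passed and Tff2 did not pass either, and without mouse A or C alone 1 and 4 exocrine genes passed. With the exocrine pancreas genes left out of the fit, 5544 genes were higher and 5690 lower over the genome.

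The same contrast was then read in the 4 mutant mice, which share no library with the control comparison. Neurog3 had 549 and 201 counts over the control libraries of duodenum and ileum, and 1 count over the mutant libraries of each tissue. In mutant mice 3058 genes (17.1%) were higher and 3893 (21.8%) lower in the ileum among 17852 tested. Of the genes called in control mice and tested in mutants, 82.1% of the higher and 83.1% of the lower had the same sign, and 40.5 and 51.9% were called in the same direction. The test of the difference, tissue by genotype over all 16 libraries, called 4027 of 19289 genes (20.9%), and 1734 without the block.

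These regional landmarks had the same direction in mutants. In mutant mice Fabp6 had a log2 fold change of 15.52 (adjusted p = 3.56e-09), Slc10a2 of 6.87 (adjusted p = 2.83e-05), Pdx1 of -5.62 (adjusted p = 3.32e-05), Gata4 of -3.70 (adjusted p = 4.43e-05) and Slc46a1 of -4.51 (adjusted p = 3.97e-07). Of the 16 Hox genes higher in control ileum, 15 were tested in mutants, 15 had the same sign and 13 were called, and tissue by genotype was called for 0 of the 16. Of the 20 interferon genes 20 had the same sign and 18 were called, and of the 15 smooth muscle genes 15 and 14. Slc40a1, which depended on the mouse in controls, had a log2 fold change of -3.69 in mutants (adjusted p = 2.39e-05).

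Other groups differed in size between the genotypes, and some genes differed in direction. Fabp1, Apoa4 and Rbp2 had smaller regional differences in mutant mice, with log2 fold changes of -2.71, -2.27 and -2.04 and differences of 1.12, 1.11 and 1.18 from control (tissue by genotype adjusted p = 0.0198, 0.0236 and 0.0222). Of the 23 lipid genes lower in control ileum, 22 had the same sign in mutants and 10 were called for tissue by genotype, beside 1821 of all 5832 genes lower in control ileum. The control libraries that chose these genes also enter that test. Of the 18 Paneth cell genes 18 had the same sign and 9 (beside 1349 of all 5423 genes higher in control ileum) were called for the difference, such as Defa22 (log2 fold change 5.16 in mutants, tissue by genotype adjusted p = 0.00183). All of the 16 T cell genes were lower in mutant ileum too, and 13 were called for the difference, with a median of -2.55 in mutants and -1.25 in controls. Slc15a1 was lower in mutant ileum (log2 fold change -1.10, adjusted p = 0.00706), and its tissue by genotype difference of -1.29 was called (adjusted p = 0.0208). Sct, lower in control ileum (log2 fold change -0.60), was higher in mutant ileum (1.07, adjusted p = 0.00297). Ciita, higher in control ileum (0.47), was lower in mutant ileum (-0.81, adjusted p = 0.00159). Among 289 named genes 268 kept their sign. Of the 8 stem and proliferation genes lower in control ileum, 2 had the same sign in mutants, against 83.1% of all such genes tested. Tissue by genotype was called for 7 of the 8, beside 1821 of all 5832 genes lower in control ileum. The lower calls of this list in control mice rest on the scaling, as given above.

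**Figure D5:**
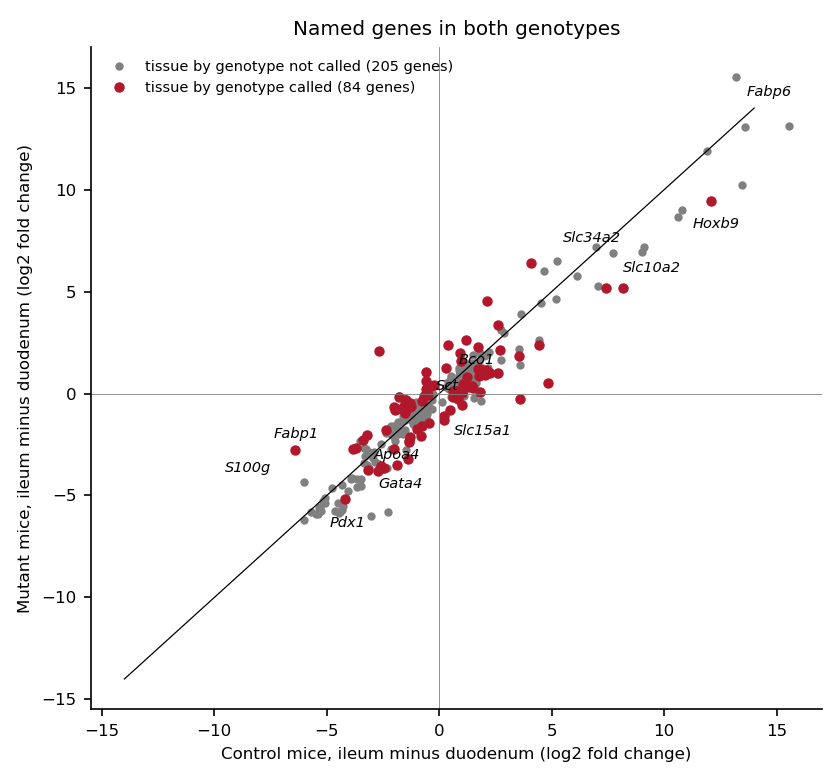
Ileum minus duodenum log2 fold change of 289 named genes in control mice (x axis) and mutant mice (y axis), in red where tissue by genotype was called (84 genes) and grey where it was not (205 genes), with a line of equal values. Of the 289 genes 268 lie on the same side of 0 in both genotypes.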

How the data were processed

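Total RNA of duodenum and ileum was sequenced as stranded libraries after ribosomal RNA depletion, per the labels' protocols. The authors deposited raw read counts per gene for all 16 libraries. The submitters' processing notes name cutadapt 1.10, Bowtie2 2.2.8, STAR 2.5.3a, HTSeq 0.6.1p1 and the mm39 build; their roles, the annotation release and the strand setting were not given in the sources used here, so overlapping and antisense genes cannot be told apart. Gene names came from a GRCm38 annotation, used for names only, which matched 52083 of 55359 identifiers, and the 3276 unnamed ones held 1.05% of counts in the control libraries. No pair of libraries was identical.

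Genes passing the low count filter of edgeR 4.0.16 were tested in R 4.3.3 with its robust quasi-likelihood F test after scaling by the trimmed mean of M values, with the mouse as a block, on the 8 control libraries. Adjusted p-values are Benjamini-Hochberg values over all genes tested, with a threshold of 0.05, and the standard error is the log2 fold change divided by the root of F. The same fit was made on the 8 mutant libraries, and tissue by genotype on all 16. The tests were tried on simulated counts first. The pairing comes from the mouse number in the names of the libraries. As a check, deviations from the tissue means correlated at 0.41 to 0.53 between the libraries of a mouse, and at most at 0.19 to 0.27 with another mouse. Alternatives were other size factors, library totals, DESeq2 1.42.0, limma-voom (limma 3.58.1), other filters, a fold of 1.5 in the null hypothesis, no block, all 16 libraries in 1 fit, and libraries left out.

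Named genes were 53 landmarks, the 10 largest differences in each direction at a mean of at least 5 CPM in the higher tissue and the same direction in all 4 mice, up to 4 called genes per list and direction with the smallest p, and, in lists with few calls, the member of highest level that did not pass. Unnamed models and genes of the lists for other organs, the duodenal gland and gastric list included, were left out of the largest differences. The lists held 917 distinct genes besides 7 names not matched. The comparison, lists and landmarks were chosen with earlier results of these data known. Promoter windows came from RefSeq (GRCm38.p6), with 671 of the 917 genes matched. Results for some genes are not reported here.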

Additional observations from a re-analysis of the deposited data

Results flagged for a closer look

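Some landmark genes had a library far from the others of its tissue, by Dixon's test at the 95% level in groups of 4, over 121 groups of values; chance alone flags about 1 in 20 groups. In mouse B this was so for Onecut2 in the duodenum (145 CPM) and ileum (5.79 CPM), Cdx2 in the duodenum (130 CPM), and Nr1h4 (88.7 CPM), Sis (5020 CPM), Fabp2 (4870 CPM), Nts (82.2 CPM) and Slc15a1 (1180 CPM) in the ileum. It was also so for Cdx1 in the ileum of mouse A (141 CPM), Neurog3 in the ileum of mouse D (0.572 CPM) and Muc2 in the duodenum of mouse C (862 CPM).

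For other landmarks the ileum minus duodenum difference itself differed between mutant and control mice by the tissue by genotype test of edgeR with adjustment over all genes. The log2 difference, mutant minus control, was 1.12 for Fabp1, 1.11 for Apoa4, 1.18 for Rbp2, 1.98 for Bco1, 1.65 for Sct and 1.22 for Sst. It was -1.29 for Slc15a1, -1.13 for Enpep and -2.65 for Slc5a8. For Pyy it was -8.51, with 81 counts over the mutant duodenum libraries and 4 over the mutant ileum libraries, so its size depends on the prior count.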

How the results depend on the processing

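The counts of 5423 higher and 5832 lower genes became 9161 and 2832 with library totals alone, 2451 and 2362 when tested against a fold of 1.5, and 3488 and 3854 without mice A and C, a fit on 2 mice. Leaving out 1 mouse gave 4496 to 5496 higher and 4839 to 5385 lower genes. Without the replicate block, that is without pairing by mouse, 5109 were higher and 5511 lower, and 92.7% of calls remained; among named genes 24 calls were lost and 2 gained, of which the report gives those it describes. In mutant mice the counts were 2301 and 3246 without the block and 2141 to 2521 and 3104 to 3505 with 1 mouse left out. Tissue by genotype calls fell from 4027 to 1734 without the replicate block. They ranged from 2085 to 4483 with 1 mouse left out, and were 2085 without mouse C, 2418 without mouse A and 2622 without the mutant mouse of Duo_136_NFVCT. The causes were not tested.

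Among the 310 named genes, those called in the main fit changed sign only with library totals alone. This was so for 5 genes: Mmachc (0.11), Atp2b1 (0.084), Mcm3 (0.024), F11r (0.069) and Aqp4 (0.16). Sign changes of named genes that were not called in the main fit were not counted. With that scaling 1189 of all calls changed sign and 73.3% remained. Counts near 0 limit the folds of genes absent from a tissue to bounds: 3 counts correspond to 0.0144 CPM in the duodenum and 0.0138 CPM in the ileum.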
